A study of Homo sapiens with 12 samples.

Results

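MicroRNA precursor genes were taken as the transcript clusters of the array that carried 1 gene symbol of the microRNA (miRNA) form, host gene symbols ending in HG left out. The rule gave 180 genes among 17958 with 1 symbol, each read by 1 transcript cluster, which is a set of probes summarised into 1 value per array. The let-7 family supplied 9 of them (MIRLET7A1, A2, C, D, E, F1, F2, G and I). The other 2 of the 11 listed let-7 genes, MIRLET7A3 and MIRLET7B, were not analysed here. A further 43 clusters held a miRNA symbol together with other symbols and were not used.

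The cells were BT549, a human triple-negative breast cancer line that lacks ERα, the progesterone receptor and HER2 amplification, and the question was what ERβ2, the splice form 2 of estrogen receptor β, does to their transcripts. The siRNA groups were transfected with siRNA and collected after 48 h: control siRNA and siRNA targeting ERβ2. The others were transfected with plasmid and collected after 24 h: pcDNA3 empty vector (EV) and pcDNA3 with the flag-tagged ERβ2 cDNA. Each group held 3 biological replicates, all 12 arrays came from 1 cell line in RPMI medium with fetal bovine serum, and total RNA was extracted with the RNeasy Mini Kit, as the labels name it. Transfection was transient and its efficiency was not measured here, so cells without siRNA or plasmid may remain in each sample. A lower level per cell and fewer responding cells cannot be told apart.

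A miRNA gene is transcribed into a long primary transcript, often inside the intron or exon of a host gene. Drosha with DGCR8 cuts out the hairpin, Dicer cuts the hairpin to the mature strand, and an Argonaute protein carries this strand to target mRNAs that match its seed, bases 2 to 8. The let-7 miRNAs repress growth and stem cell genes and are often low in tumors, where LIN28 proteins block their maturation. The values below are the signals of probes assigned to the precursor genes and are no measure of mature miRNAs. Whether a cluster read the hairpin, the primary transcript or the host transcript was not tested.

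The sequences of the let-7 family show why its genes are set apart. RefSeq (GRCh38.p14) gave mature sequences for 171 of the 180 genes, and the let-7 seed was the most widely shared, by 10 genes: the 9 let-7 genes and MIR98. The next seeds, with 5 genes each, were those of the miR-181 and of the miR-15 and miR-16 families. Capitals mark the seed.
let-7a-5p, from MIRLET7A1 and MIRLET7A2: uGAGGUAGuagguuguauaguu
let-7c-5p: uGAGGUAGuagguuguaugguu
let-7d-5p: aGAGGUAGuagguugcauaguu
let-7e-5p: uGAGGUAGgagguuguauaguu
let-7f-5p, from MIRLET7F1 and MIRLET7F2: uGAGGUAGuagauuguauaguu
let-7g-5p: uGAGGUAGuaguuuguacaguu
let-7i-5p: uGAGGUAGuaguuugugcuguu
miR-98-5p: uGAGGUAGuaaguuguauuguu
The mature let-7a is the same from MIRLET7A1 and MIRLET7A2, and their hairpins differ outside it. The 4 let-7 hairpins on which the results below turn follow, with the mature strand in capitals. MIRLET7A1 lies at chr9:94175957-94176036 (plus strand), MIRLET7D at chr9:94178834-94178920 (plus strand), MIRLET7A2 at chr11:122146522-122146593 (minus strand) and MIRLET7I at chr12:62603686-62603769 (plus strand).
MIRLET7A1: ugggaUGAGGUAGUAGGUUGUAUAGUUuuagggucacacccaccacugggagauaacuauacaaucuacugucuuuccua
MIRLET7A2: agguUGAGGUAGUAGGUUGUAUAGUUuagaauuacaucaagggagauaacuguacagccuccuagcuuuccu
MIRLET7D: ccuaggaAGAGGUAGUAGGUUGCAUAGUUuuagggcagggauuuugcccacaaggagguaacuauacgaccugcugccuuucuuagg
MIRLET7I: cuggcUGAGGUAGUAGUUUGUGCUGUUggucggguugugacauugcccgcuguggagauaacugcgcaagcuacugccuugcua
The remaining mature strands belong to the genes that moved most or that the study's design makes of interest, again with the seed in capitals.
miR-503-5p: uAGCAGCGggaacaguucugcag
miR-137-3p: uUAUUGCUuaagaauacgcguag
miR-31-5p: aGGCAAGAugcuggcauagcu
miR-21-5p: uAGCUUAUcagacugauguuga
miR-23a-3p: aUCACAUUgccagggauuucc
miR-27a-3p: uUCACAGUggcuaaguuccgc
miR-210-3p: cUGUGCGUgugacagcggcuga
miR-221-3p: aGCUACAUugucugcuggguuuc
miR-222-3p: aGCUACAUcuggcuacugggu
None of the 7 miRNAs from miR-503 to miR-210 in this list shares its seed with another of them, while miR-221 and miR-222 share theirs.

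Array medians lay between 5.04 and 5.14 on the log2 scale and arrays of a group correlated with each other at a mean of 0.997 or more. The same over the miRNA genes alone was 0.973 (EV replicate 2) to 0.988. VIM, a mesenchymal marker that BT549 cells carry, was at a mean of 12.16. Of the epithelial and luminal markers EPCAM and CDH1 were at 3.95, while KRT18 was at 10.02, GATA3 at 8.52 and KRT8 at 7.44. With ERβ2 siRNA KRT18 and KRT8 rose by 0.88 and 0.78 (adjusted p = 0.000251 and 0.000767, limma), CDH1 by 0.17 (adjusted p = 0.0997), GATA3 changed by −0.29 (adjusted p = 0.0134), and EPCAM did not pass. The part of these markers in the values below was not tested. ESR2, the gene of all ERβ isoforms, was at 4.03, 3.88 and 4.05 with control siRNA and 4.12, 3.99 and 3.8 with ERβ2 siRNA, so it gives no check of the siRNA labels. It was at 4.08, 3.93 and 4.01 with EV and 4.35, 4.72 and 4.37 with the ERβ2 plasmid, a difference of 0.47 that did not pass (adjusted p = 0.449, limma).

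Most miRNA clusters gave dim signals. The mean over the 12 arrays ran from 2.54 to 7.78 with a median of 3.47, against a median of 6.4 over all genes, and 22 of the 180 (12.2%) reached a mean of 5 against 63.4% of all genes. Signals of different clusters are not transcript levels and are given only to show how far the clusters stood above the low end of the arrays. Across the 162 genes with a RefSeq hairpin, the mean signal went with the GC content of the hairpin (Pearson's r = 0.62, Spearman's rho = 0.66), a description across genes that share all arrays, and the part of probe base composition in it was not tested.

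With ERβ2 siRNA, few miRNA genes changed, and MIR503 and MIRLET7I were the ones that changed by more than 1.5-fold. Genes passed where limma gave an adjusted p up to 0.1. By this rule 5 rose (MIR503, MIRLET7I, MIR137, MIR31 and MIRLET7D), 15 fell and 160 did not pass. Of all genes, 18.3% rose and 17.5% fell by the same rule, against 2.78% and 8.33% of the miRNA genes. With the 1.5-fold limit added, 2 miRNA genes rose and 0 fell, where 3.25% of all genes rose and 1.26% fell. By unadjusted p under 0.05, 27 miRNA genes (15%) differed, beside 39.7% of all genes. The median change of the miRNA genes was −0.06 on the log2 scale beside −0.03 for all genes. The ERβ2 siRNA and control siRNA arrays did not overlap for 30 miRNA genes, 16.7% against 42.4% of all genes.

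The balance of rises and falls followed the scaling of the arrays. The split was 5 to 15 on the deposited values, 9 to 9 after quantile normalization again, 11 to 8 after cyclic loess and 5 to 55 with each array centred on its median, which moved the median change of all genes to −0.12 in this comparison and to −0.21 between both control groups. No direction is therefore given for the miRNA genes as a group. The count was 31 without control siRNA replicate 1 and 13 without ERβ2 siRNA replicate 1. With the methods' t-test and Benjamini-Hochberg adjustment 8 passed. Of the 20 genes, MIRLET7D, MIR137, MIR31, MIR27A, MIR210, MIR218-2, MIR208A, MIR124-2, MIR25, MIR129-1, MIR194-1 and MIR199A2 did not pass by it. For 169 of the 180 genes the 95% interval of the change lay within 1.5-fold in both directions. Among the 22 genes with a mean of at least 5, 9 passed (40.9%), against 46.8% of all genes at that signal.

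**Figure D1:**
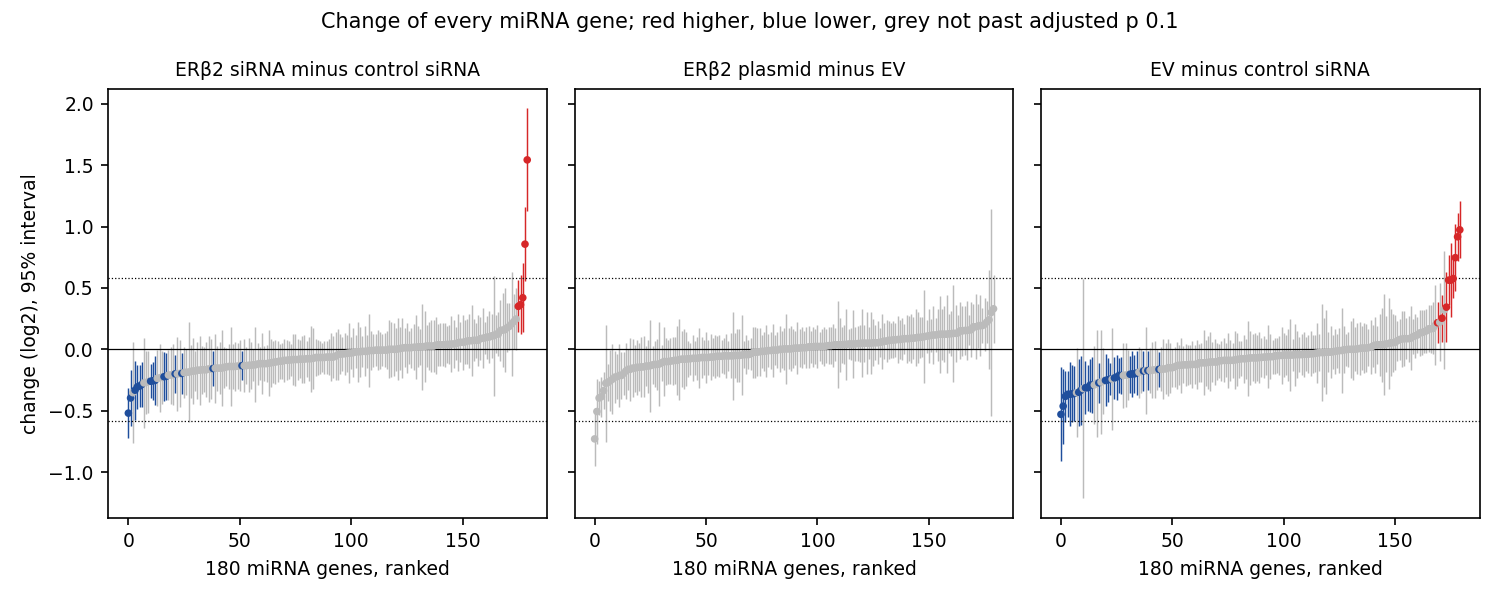
Change on the log2 scale of each of the 180 miRNA genes, ranked, in ERβ2 siRNA against control siRNA (left), ERβ2 plasmid against EV (middle) and EV against control siRNA (right), with 95% intervals from limma and dotted lines at 1.5-fold. Red and blue points passed an adjusted p of 0.1: 5 and 15 on the left, 0 in the middle, 9 and 28 on the right.

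MIR503, whose mature miR-503 represses cyclins and other cell cycle genes, rose most. Its signal was 7.46, 7.49 and 7.6 with control siRNA and 9.47, 8.6 and 9.11 with ERβ2 siRNA. It was 7.42, 7.46 and 7.3 with EV and 7.19, 7.05 and 7.13 with the ERβ2 plasmid. All 3 ERβ2 siRNA arrays stood above the other 9, which lay close together. The rise was 1.54 on the log2 scale (standard error 0.18, 2.92-fold, adjusted p = 0.000478, limma). MIR503 lies at chrX:134546328-134546398 (minus strand) within the long non-coding RNA gene MIR503HG, and the hairpin reads, with the mature 5′ strand in capitals, as follows.
MIR503: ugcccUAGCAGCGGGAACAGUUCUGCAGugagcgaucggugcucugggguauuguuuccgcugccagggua
MIR503HG rose as well, from 8.01, 8.11 and 7.98 to 9.31, 8.63 and 9.16, a change of 1 (standard error 0.15, adjusted p = 0.00176, limma). The ERβ2 siRNA arrays kept the same order in both genes, with replicate 2 lowest.

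MIRLET7I, a let-7 gene without another let-7 gene beside it, was the second. Its signal was 6.07, 5.66 and 5.85 with control siRNA and 6.89, 6.46 and 6.8 with ERβ2 siRNA. It was 6.38, 6.67 and 6.22 with EV and 6.32, 6.4 and 6.34 with the ERβ2 plasmid. The siRNA groups did not overlap, and the EV and ERβ2 plasmid arrays lay above control siRNA and overlapped each other. The rise with ERβ2 siRNA was 0.86 (standard error 0.13, 1.81-fold, adjusted p = 0.00179, limma), and EV was 0.56 above control siRNA (standard error 0.13, adjusted p = 0.0128).

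MIRLET7D was the other let-7 gene to rise with ERβ2 siRNA. Its signal was 4.6, 4.39 and 4.51 with control siRNA and 4.93, 4.66 and 4.96 with ERβ2 siRNA, a rise of 0.35 (standard error 0.09, 1.27-fold, adjusted p = 0.0233, limma). MIRLET7A1 and MIRLET7F1 lie within 10 kb of MIRLET7D on the same strand and did not follow it. MIRLET7A1 was at 3.55, 3.71 and 3.82 with control siRNA and 3.64, 3.56 and 3.26 with ERβ2 siRNA (change −0.21, standard error 0.11, adjusted p = 0.194), and MIRLET7F1 changed by 0.07 (standard error 0.09, adjusted p = 0.591). The difference between these neighbours was not tested, and both clusters had dim signals.

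The other 5 let-7 genes did not pass with ERβ2 siRNA, with changes of −0.17 (MIRLET7A2), −0.17 (MIRLET7E), −0.13 (MIRLET7C), 0.01 (MIRLET7F2) and 0.09 (MIRLET7G). Over the 12 arrays MIRLET7C ran from 2.89 to 3.26, MIRLET7E from 4.01 to 4.4, MIRLET7F2 from 3.76 to 4.43 and MIRLET7G from 3.94 to 4.57, and the groups overlapped in each. The median over the 9 let-7 genes was 0.01, beside −0.03 for all genes. MIR98, which shares the seed, was at 4.03, 3.46 and 3.56 against 3.63, 3.55 and 3.49 and did not pass either (−0.13, standard error 0.13, adjusted p = 0.521, limma). With each array centred on its median, MIRLET7A1, MIRLET7C and MIRLET7E passed as lower, while MIRLET7I and MIRLET7D passed as higher under every scaling tried. Of the 7 miRNA genes that lie in clusters with let-7 genes (such as MIR100, MIR99A and MIR125A), 0 passed in any comparison on the deposited values. With ERβ2 siRNA 0 of the 7 had an unadjusted p under 0.05, beside 39.7% of all genes, and 35.8% of all genes passed. The largest change among the 7 was −0.15 (MIR125B1). MIR125B1 passed as lower with each array centred on its median, and MIR125A as higher after quantile normalization again and after cyclic loess.

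**Figure D2:**
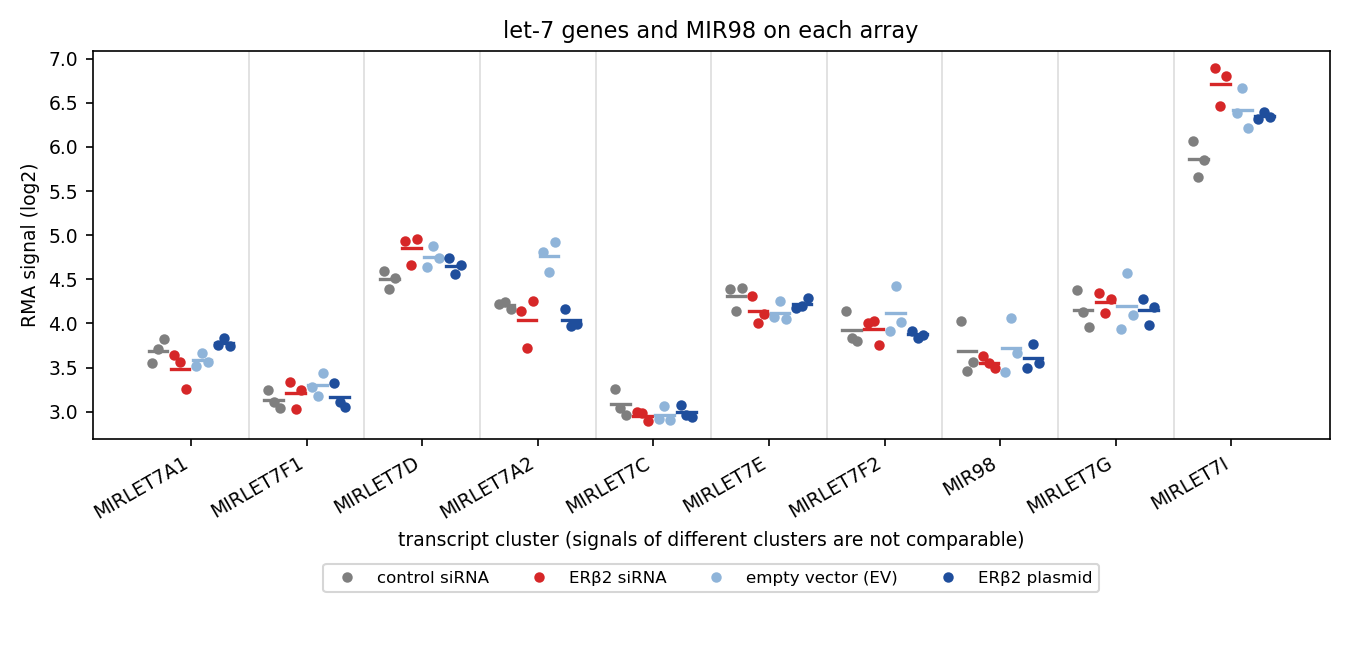
RMA signal (log2) of the 9 let-7 genes and MIR98 on each array, points for arrays and lines for the mean of 3, coloured by group. MIRLET7I is lowest with control siRNA (5.66 to 6.07) and highest with ERβ2 siRNA (6.46 to 6.89), and MIRLET7A2 is highest with EV (4.58 to 4.92).

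MIR137 and MIR31 rose by less. miR-137 holds back cell cycle genes in neural and tumor cells, and miR-31 represses several genes of cell movement. MIR137 was at 5.01, 4.75 and 4.71 with control siRNA and 5.51, 5.12 and 5.1 with ERβ2 siRNA (0.42, standard error 0.12, adjusted p = 0.0351, limma). MIR31 was at 4.11, 3.75 and 4.06 and at 4.48, 4.27 and 4.26 (0.36, standard error 0.10, adjusted p = 0.0328). The siRNA groups did not overlap in either gene, but both calls rested on single arrays. MIR137 did not pass without control siRNA replicate 2 or replicate 3, and MIR31 did not pass without ERβ2 siRNA replicate 1.

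MIR23A fell most. It shares a primary transcript with MIR27A and MIR24-2, all within 10 kb on chromosome 19. MIR23A was at 5.44, 5.46 and 5.51 with control siRNA and 4.81, 4.88 and 5.16 with ERβ2 siRNA, a fall of 0.52 (standard error 0.09, 1.43-fold, adjusted p = 0.00331, limma). MIR27A was at 5.94, 5.94 and 5.96 and at 5.84, 5.61 and 5.53 (−0.29, standard error 0.08, adjusted p = 0.031), a call that was lost without ERβ2 siRNA replicate 3. MIR24-2 was at 4.06, 4.16 and 4.43 and at 4.13, 3.9 and 3.83, overlapped between both groups and did not pass (−0.26, standard error 0.11, adjusted p = 0.113). The primary transcript gene itself, MIR23AHG, was not measured here.

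MIR210, the miRNA gene best known as a target of hypoxia-inducible factor, also fell. Its signal was 6.11, 6.25 and 6.5 with control siRNA and 5.83, 5.99 and 5.85 with ERβ2 siRNA (−0.40, standard error 0.10, 1.32-fold, adjusted p = 0.0185, limma). Of the 3 hypoxia miRNA genes measured, 2 passed as lower, the other being MIR199A2 (−0.20, standard error 0.07, adjusted p = 0.0845), and 0 rose, where 17.5% of all genes fell. MIR199A1, also on the list, did not pass (−0.16, adjusted p = 0.3, limma). The list was not split by the direction in which hypoxia moves each gene, so the count gives no direction for hypoxia. MIR199A2 did not pass in 12 of 17 alternatives, among them quantile normalization, cyclic loess and the leaving out of replicate 1 or 3 of either siRNA group.

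The remaining 11 falls were smaller than 1.3-fold. MIR425, within DALRD3, was at 5.66, 5.73 and 5.68 and at 5.54, 5.3 and 5.33 (−0.30, standard error 0.07, adjusted p = 0.0169, limma). MIR128-1, in R3HDM1, was at 3, 3.13 and 3.03 and at 2.81, 2.74 and 2.83 (−0.26, standard error 0.06, adjusted p = 0.0128). MIR138-1 (−0.31) and MIR132 (−0.26) fell with adjusted p of 0.0209 and 0.0238, the latter lost after quantile normalization again. The other 7 were MIR218-2, MIR208A, MIR124-2, MIR25, MIR129-1, MIR194-1 and MIR133B, with adjusted p from 0.0468 to 0.099, and each of these calls was lost without at least 1 single array. MIR128-1, MIR138-1, MIR425 and MIR23A kept passing under every alternative that held them. MIR128-1, at a dim mean of 2.87, was not in the alternative limited to a mean of at least 5.

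**Figure D3:**
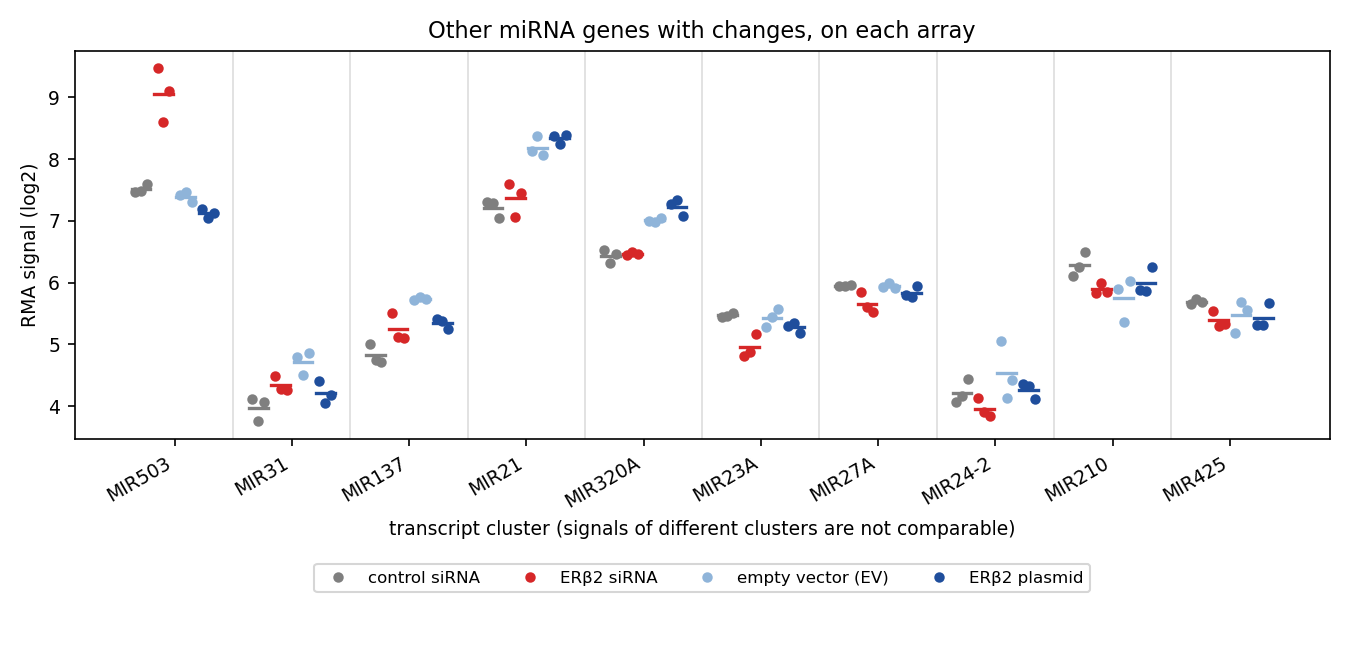
RMA signal (log2) on each array of 10 miRNA genes outside the let-7 family, points for arrays and lines for the mean of 3. MIR503 is high with ERβ2 siRNA (8.6 to 9.47), MIR23A low with ERβ2 siRNA (4.81 to 5.16), and MIR21 and MIR320A higher on all 6 plasmid arrays than on the 6 siRNA arrays.

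Counts are given next for groups of miRNA genes that share a genome cluster or a known role, to be read beside the 11.1% of all miRNA genes and the 35.8% of all genes that passed with ERβ2 siRNA. Of the 15 measured genes of the imprinted DLK1-DIO3 cluster 0 passed and 1 had an unadjusted p under 0.05, with a median of −0.01 and the largest changes in MIR412 (0.19) and MIR377 (−0.18). Of the 3 measured genes of the primate cluster on chromosome 19 0 passed, with changes of 0.12 (MIR517C), −0.06 (MIR516B2) and −0.02 (MIR516B1). Of 12 genes tied to p53 and growth arrest 1 fell (MIR194-1), and MIR143 (−0.15), MIR145 (−0.14) and MIR16-1 (−0.13) did not pass. Of 6 genes of the miR-17 family clusters 1 fell (MIR25), and MIR106B (−0.11) and MIR93 (0.07), from the same transcript, did not pass.

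Of 11 genes tied to epithelial-mesenchymal transition and metastasis 1 rose (MIR31), where 18.3% of all genes rose and 17.5% fell. MIR200B (−0.21, adjusted p = 0.162, limma) and MIR429 (−0.10), which repress ZEB factors, and MIR10B (−0.21, adjusted p = 0.112) did not pass. Of 4 genes tied to estrogen receptors 0 passed and 0 had an unadjusted p under 0.05. Among these, MIR221 and MIR222 share a transcript and repress the mRNA of ERα. MIR221 was at 6.35, 5.35 and 6.09 with ERβ2 siRNA, so replicate 2 stood below the 3 control siRNA arrays (5.86, 5.85 and 5.75) and the others above, and it passed as higher without that array. MIR222 was at 4.71, 4.72 and 4.69 and at 4.86, 4.68 and 4.8 (0.07, adjusted p = 0.418).

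With the ERβ2 plasmid 0 of 180 miRNA genes passed against EV, where 2 of 17958 genes (0.0111%) passed. The methods' t-test passed 0 of the miRNA genes after Benjamini-Hochberg adjustment and 10 at an unadjusted p under 0.05. By limma's unadjusted p under 0.05 there were 16 miRNA genes (8.89%), beside 7.02% of all genes. The groups did not overlap for 18 miRNA genes (10%), beside 12% of all genes, and the median change was 0.01, beside −0.00 for all genes. For 174 of 180 genes the 95% interval lay within 1.5-fold.

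MIRLET7A2 had the smallest p. It was at 4.81, 4.58 and 4.92 with EV and 4.16, 3.97 and 3.99 with the ERβ2 plasmid, a difference of −0.73 (standard error 0.10, 1.66-fold lower, adjusted p = 0.218, limma). With control siRNA it was at 4.22, 4.24 and 4.16 and with ERβ2 siRNA at 4.14, 3.72 and 4.25. The 3 EV arrays thus stood above all other 9. It passed without EV replicate 2 (adjusted p between 0.0226 and 0.804 over all alternatives) and with an intensity trend and robust prior in the fit. MIRLET7A2 lies in MIR100HG beside MIR100, and MIR100HG was not measured here.

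The next 4 by p were also lower with the ERβ2 plasmid and did not pass. MIR137 was at 5.72, 5.76 and 5.74 with EV and 5.41, 5.37 and 5.25 with the ERβ2 plasmid (−0.40, standard error 0.06, adjusted p = 0.218, limma). MIR31 was at 4.79, 4.51 and 4.86 and at 4.41, 4.05 and 4.18 (−0.51, standard error 0.12, adjusted p = 0.472). For both, the EV arrays were the highest group, while the ERβ2 plasmid arrays overlapped the ERβ2 siRNA arrays. MIR221 (−0.34, adjusted p = 0.441) was at 6.02, 6.15 and 5.94 and at 5.71, 5.66 and 5.73, and MIR365A (−0.39, adjusted p = 0.418) at 3.63, 3.8 and 3.7 and at 3.3, 3.43 and 3.24. For MIR503 the difference was −0.27 (adjusted p = 0.523).

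The other let-7 genes differed little between the ERβ2 plasmid and EV. Their changes ran from −0.24 (MIRLET7F2) to 0.19 (MIRLET7A1, unadjusted p = 0.0129, adjusted p = 0.577, limma), and the 95% interval of MIRLET7I was −0.31 to 0.17. For 8 of the 9 let-7 genes, MIRLET7A2 being the exception, the interval lay within 1.5-fold.

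The control groups differed from each other more than the plasmid groups did. EV minus control siRNA sets a 24 h plasmid transfection against a 48 h siRNA transfection, so time and reagent cannot be told apart. It shares the EV arrays with the ERβ2 plasmid comparison and the control siRNA arrays with the ERβ2 siRNA comparison, so values are set side by side and no overlap was counted. By the same rule 9 miRNA genes were higher with EV and 28 lower, against 19.2% and 22.4% of all genes. With the 1.5-fold limit 3 were higher and 0 lower, against 5.57% and 1.3% of all genes. The groups did not overlap for 41 miRNA genes, 22.8% beside 47.2% of all genes. The split of 9 to 28 was 18 to 19 after quantile normalization again, 20 to 10 after cyclic loess and 6 to 107 with each array centred on its median, and the count was 23 without control siRNA replicate 2.

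The 3 genes past 1.5-fold were MIR21, MIR137 and MIR31. MIR21, whose miR-21 represses tumor suppressors such as PDCD4, was at 7.3, 7.29 and 7.05 with control siRNA and 8.13, 8.37 and 8.06 with EV (0.97, standard error 0.10, 1.96-fold, adjusted p = 0.000177). It was at 7.59, 7.07 and 7.45 with ERβ2 siRNA and 8.38, 8.24 and 8.39 with the ERβ2 plasmid, so all 6 plasmid arrays lay above all 6 siRNA arrays. MIR137 was 0.92 higher with EV (standard error 0.08, 1.89-fold, adjusted p = 9.36e-05, limma) and MIR31 0.75 higher (standard error 0.12, 1.68-fold, adjusted p = 0.0019).

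MIR320A, made from a short capped hairpin without Drosha, had the same order of groups as MIR21. It was at 6.52, 6.31 and 6.46 with control siRNA, 6.44, 6.5 and 6.47 with ERβ2 siRNA, 7, 6.98 and 7.04 with EV and 7.27, 7.34 and 7.08 with the ERβ2 plasmid. EV was 0.58 above control siRNA (standard error 0.07, adjusted p = 0.000433, limma). Of the let-7 genes MIRLET7A2 (0.56, standard error 0.09, adjusted p = 0.0018), MIRLET7I and MIRLET7D (0.25, standard error 0.08, adjusted p = 0.0486) were higher with EV and 0 were lower. The call for MIRLET7D was lost with arrays centred on their medians and without control siRNA replicate 2 or 3 or EV replicate 2. MIR210 was lower with EV, at 5.89, 5.36 and 6.02 (−0.53, standard error 0.17, adjusted p = 0.0418), a call lost without control siRNA replicate 3 and by the methods' t-test. MIR339, among the 5 brightest miRNA clusters, was at 6.57, 6.72 and 6.76 with control siRNA and 6.47, 6.39 and 6.37 with EV (−0.27, standard error 0.07, adjusted p = 0.0191). The other falls with EV were smaller than MIR210's, from −0.46 (MIR375) to −0.16 (MIR204).

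The effect of ERβ2 siRNA and that of the ERβ2 plasmid were compared in 1 fit over the 12 arrays. The difference passed for 20 miRNA genes (8 positive, 12 negative) where 26.4% of all genes passed, and for 5 of them it was at least 1.5-fold, where 5.51% of all genes were. These were MIR503 (1.81, standard error 0.22, adjusted p = 0.000103, limma), MIRLET7I (0.93, standard error 0.19, adjusted p = 0.00382), MIR31 (0.87, standard error 0.17, adjusted p = 0.0033), MIR137 (0.82, standard error 0.15, adjusted p = 0.00199) and MIR210 (−0.64, standard error 0.22, adjusted p = 0.0651). For all 5 genes the siRNA and the plasmid effect had opposite signs, the plasmid effect not passing on its own, and that of MIRLET7I was −0.07. The split of 8 to 12 was 12 to 6 after quantile normalization again, 13 to 2 after cyclic loess and 7 to 44 with each array centred on its median. The count was 12 without control siRNA replicate 2, ERβ2 siRNA replicate 3 or EV replicate 1, and 13 without control siRNA replicate 3. The call for MIR210 was lost without replicate 3 of control siRNA, 1 or 3 of ERβ2 siRNA, 2 of EV or 3 of the ERβ2 plasmid. The other negative differences were smaller than that of MIR210, MIR23A among them (−0.37, adjusted p = 0.0687). Of the let-7 genes the difference was positive for MIRLET7I, MIRLET7A2 (0.56) and MIRLET7D (0.45) and negative for MIRLET7A1 (−0.40, adjusted p = 0.053), which was lost under quantile normalization, under cyclic loess and without replicate 3 of control siRNA, replicate 3 of ERβ2 siRNA, replicate 1 of EV or replicate 2 of the ERβ2 plasmid.

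Host genes were set beside the miRNA genes to see whether both moved together. Of the 180 miRNA genes, 118 lie on the same strand within another gene in the RefSeq annotation, and for 61 of them this host gene was measured, 50 host genes in all. With ERβ2 siRNA the host gene passed in 27 of the 61 pairs, the miRNA gene in 8, and both in 3: MIR503 with MIR503HG, MIR31 with MIR31HG, and MIR218-2 with SLIT3. Of all genes 35.8% passed. Host and miRNA gene changed with the same sign in 37 of the 61 pairs, and across the pairs, which share all arrays and in part a host gene, the changes had a Pearson's r of 0.36 and a Spearman's rho of 0.2. Between EV and control siRNA the host gene passed in 26 of the 61 pairs and the miRNA gene in 13, where 41.6% of all genes passed. Both passed in 9 pairs, 5 of them in the same direction, and whether unrelated pairs would give as many was not tested. In the pairs with a host gene that passed with ERβ2 siRNA, the median size of the change was 0.33 for the host gene and 0.08 for the miRNA gene. These pairs were picked by the change of the host gene, which favours a larger value for it. The median size with ERβ2 siRNA was 0.09 over the 180 miRNA genes and 0.13 over all genes.

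The pairs went different ways. MIR31HG, the non-coding host of MIR31, rose with ERβ2 siRNA from 8.75, 8.7 and 8.7 to 9.34, 9.31 and 9.34 (0.61, standard error 0.05, adjusted p = 8.31e-05, limma), as MIR31 did. Between the control groups it went the other way from MIR31, at 8.49, 8.59 and 8.47 with EV (−0.20, adjusted p = 0.0374), a call lost without EV replicate 1 or 3. SLIT3, which encodes an axon guidance ligand, rose by 0.59 (adjusted p = 0.000186) while MIR218-2 inside it fell by 0.33 on the log2 scale (a change of −0.33, adjusted p = 0.0468), a call lost under cyclic loess and without replicate 3 of control siRNA or replicate 1 or 3 of ERβ2 siRNA.

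MIR137HG and VMP1 bear on the control groups. MIR137HG was at 4.89, 4.66 and 4.75 with control siRNA and 6, 6.17 and 5.81 with EV, 1.23 higher (standard error 0.10, adjusted p = 4.74e-05, limma) beside 0.92 for MIR137. With ERβ2 siRNA it was at 5.31, 4.47 and 4.98 and did not pass (0.15, adjusted p = 0.57), and it passed without ERβ2 siRNA replicate 2. VMP1, the protein-coding gene whose 3′ part holds MIR21, was at 10.85, 10.99 and 10.87 with control siRNA and 11.13, 11.05 and 11.11 with EV (0.19, standard error 0.06, adjusted p = 0.0503), beside 0.97 for MIR21. The VMP1 call was lost under 7 of the alternatives, among them the leaving out of single arrays.

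Other hosts moved while the miRNA gene inside did not pass, named here after their values were seen. CLCN5, a chloride transporter and host of MIR188, rose by 1 (standard error 0.05, adjusted p = 1.14e-05, limma) and LPP, a focal adhesion protein gene and host of MIR28, by 0.96 (standard error 0.06, adjusted p = 2.74e-05), with changes of −0.08 in MIR188 and 0.05 in MIR28. CTDSP2, host of MIR26A2, fell by 0.82 on the log2 scale (a change of −0.82, adjusted p = 6.44e-05), with 0.01 in MIR26A2. Of the let-7 hosts, WDR82, which holds MIRLET7G, changed by −0.24 (adjusted p = 0.0107) while MIRLET7G changed by 0.09, and HUWE1, which holds MIRLET7F2 and MIR98, changed by 0.08 (adjusted p = 0.465).

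**Figure D4:**
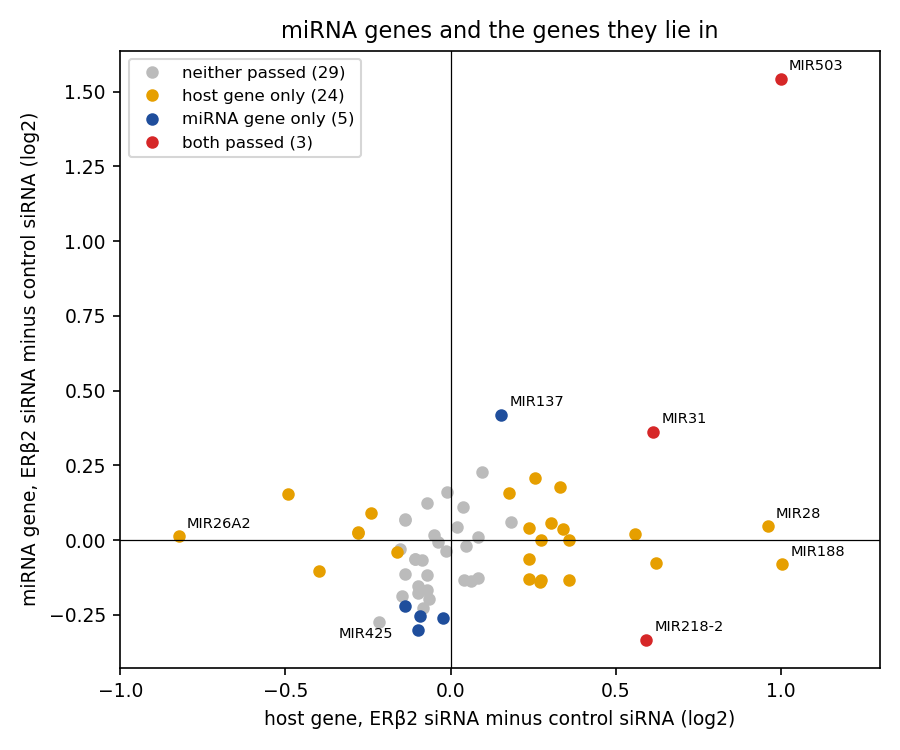
Change with ERβ2 siRNA (log2) of 61 miRNA genes on the vertical axis against the change of the gene each lies in on the horizontal axis, coloured by which passed an adjusted p of 0.1. Both passed in 3 pairs, the host gene alone in 24, the miRNA gene alone in 5 and neither in 29, and most host gene changes lie along the line of 0 change for the miRNA gene.

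The genes that make and use miRNAs changed in part. Of 28 measured genes of miRNA biogenesis and silencing, 9 rose and 7 fell with ERβ2 siRNA, with a median of −0.00 beside −0.03 for all genes, of which 18.3% rose and 17.5% fell. DICER1, the nuclease that makes the mature strand, rose by 0.80 (standard error 0.07, 1.74-fold, adjusted p = 7.29e-05, limma). AGO3 and AGO4, Argonaute proteins, rose by 0.64 and 0.50 (adjusted p = 0.000409 and 0.00146), and AGO1 fell, with a change of −0.28 (adjusted p = 0.0103). ADAR, which edits double-stranded RNA, and TRIM71, an RNA-binding ubiquitin ligase and let-7 target, both changed by −0.41 (adjusted p = 0.00956 and 0.00709). DROSHA (−0.07, adjusted p = 0.334), XPO5 (−0.04, adjusted p = 0.651), which exports the hairpin, and LIN28B (−0.10, adjusted p = 0.5) did not pass, though DROSHA passed as lower by the methods' t-test and with arrays centred on their medians. LIN28A rose by 0.78 (adjusted p = 0.00393), or by 0.40 over the mean of its clusters.

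With the ERβ2 plasmid 0 of the 28 passed and 0 had an unadjusted p under 0.05 in limma, and between EV and control siRNA 5 were higher and 8 lower, where 19.2% of all genes were higher and 22.4% lower. Among the latter, AGO1 changed by −0.62 (adjusted p = 0.000378, limma) and DICER1 by −0.28 (adjusted p = 0.0256), while ADAR was higher by 0.67 (adjusted p = 0.000925).

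Known let-7 targets moved in both directions with ERβ2 siRNA. Of 22 measured, 10 rose and 4 fell, where 18.3% of all genes rose and 17.5% fell, and the median was 0.04 beside −0.03 for all genes. CDK6, a G1 kinase, rose by 1.34 (standard error 0.08, 2.53-fold, adjusted p = 1.79e-05, limma), and TGFBR1, a TGF-β receptor, and FAS, a death receptor, rose by 0.76 and 0.62 (adjusted p = 5.09e-05 and 0.000154). HMGA2, a chromatin protein and the most studied target, rose by 0.41 (adjusted p = 0.00852). E2F2, an S phase factor, and CDC25A, a phosphatase that activates cyclin kinases, changed by −1.27 and −0.73 (adjusted p = 1.25e-05 and 0.0001). CCND1, cyclin D1, changed by −0.42 (adjusted p = 0.000626). With the ERβ2 plasmid 0 of the 22 passed in limma and 4 had an unadjusted p under 0.05, as had 7.02% of all genes.

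Small nucleolar and Cajal RNA genes are another class of short non-coding RNA genes on the array. Of 204 measured, 49 rose and 7 fell with ERβ2 siRNA, where 18.3% of all genes rose and 17.5% fell. With the ERβ2 plasmid 0 passed, where 0.0111% of all genes did. Their median change with ERβ2 siRNA was 0.05 on the deposited values, beside −0.06 for the miRNA genes. The miRNA median was −0.02 after quantile normalization again and 0.01 after cyclic loess. The snoRNA median was not recomputed, so no difference in direction is given. A mean signal of 5 was reached by 57.8% of the snoRNA genes, beside 12.2% of the miRNA genes. No test of the difference between both classes was made, and how far signal sets the shares was not tested.

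**Figure D5:**
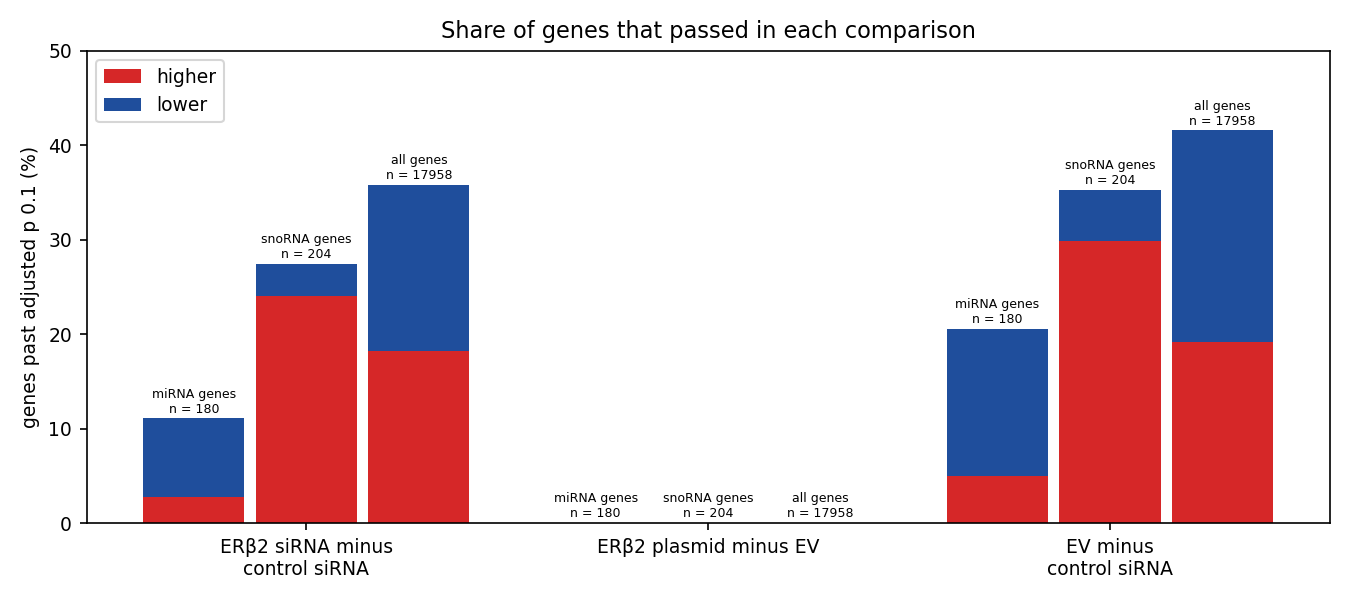
Percent of miRNA genes (180), snoRNA genes (204) and all genes (17958) past an adjusted p of 0.1 in each comparison, red for higher and blue for lower. With ERβ2 siRNA the bars reach 11.1% for miRNA genes, 27.5% for snoRNA genes and 35.8% for all genes, and with the ERβ2 plasmid they are at or near 0.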

How the data were processed

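The authors hybridised 12 Affymetrix Human Gene 1.1 ST arrays and deposited log2 values, 1 per transcript cluster, made by RMA (Affymetrix Expression Console, per the submitters' processing notes; background correction, normalization between arrays, probe summary). The log base is not stated and was taken as 2. Array number, not depth, limits precision. Of 33297 clusters 19181 had 1 symbol; per gene the brightest cluster over the 12 arrays was kept (17958 genes).

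Comparisons were fitted over all genes with limma 3.58.1 in R 4.3.3 (lmFit, eBayes; 3 arrays against 3; no replicate block; Benjamini-Hochberg). A gene passed at an adjusted p up to 0.1 and was called with a fold of at least 1.5 and p under 0.05 besides. The fit was tested on simulated data. Members and lists were chosen with earlier results of these data known. Genes named were every let-7 gene, those called or with the 5 smallest p, the 5 highest signals, and the largest folds in each list; their host genes were added. The other members that passed, R3HDM1, AGO1, DROSHA, XPO5, LIN28B, HMGA2 and CCND1 were added after values were seen.

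Host genes and sequences came from RefSeq (GRCh38.p14). The sources used here give no build for the array values. Alternatives were other rows, filters, scalings, tests and thresholds, and leaving out each array.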

Additional observations from a re-analysis of the deposited data

Results flagged for a closer look

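The effects of ERβ2 siRNA and of the ERβ2 plasmid differed by at least 1.5-fold, in 1 limma fit over all 12 arrays with an adjusted p up to 0.1, for these genes among those named, given as the siRNA effect minus the plasmid effect on the log2 scale. Among the miRNA genes the difference was 1.81 for MIR503, 0.93 for MIRLET7I, 0.87 for MIR31, 0.82 for MIR137 and −0.64 for MIR210. Among host genes it was 1.12 for MIR503HG and 0.66 for MIR137HG (adjusted p = 0.0828), and for the hosts described after their values were seen, or for the pair they form, it was 1.11 for CLCN5, 1.03 for LPP, −0.88 for CTDSP2 and 0.59 for SLIT3. Among genes of miRNA biogenesis it was 0.83 for DICER1, 0.67 for AGO3, 0.62 for AGO4 and 0.67 for LIN28A (adjusted p = 0.0499). Among let-7 targets it was 1.41 for CDK6, 0.77 for FAS, 0.66 for TGFBR1, −0.96 for CDC25A and −1.32 for E2F2. The call for MIR137HG was lost in 10 of 21 alternatives. That for LIN28A, with a mean signal under 5, was lost with all transcript clusters in the fit and over the mean of its clusters. It was also lost without replicate 1 or 2 of ERβ2 siRNA or replicate 3 of EV. The siRNA and the plasmid are meant to move ERβ2 in opposite directions. Effects of opposite sign, or a small plasmid effect, thus also give such a difference, which by itself marks no conflict between the experiments. Both effects were measured at different times, 48 h and 24 h after transfection, so time and treatment cannot be told apart in these differences. Groups of 3 arrays are too small for a search for single arrays that stand apart.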

How the results depend on the processing

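Counts are of genes that passed; on the deposited values they were 20 miRNA and 2 let-7 genes with ERβ2 siRNA, 0 and 0 with the ERβ2 plasmid, 37 and 3 between control groups, and 20 and 4 for the difference of effects. With all transcript clusters in the fit they were 12 miRNA genes (siRNA), 21 (controls) and 9 (difference). Over genes with a mean of at least 5 they were 10, 8 and 5, and 1 let-7 gene in each, since 1 let-7 gene was left. With arrays centred on their medians they were 60, 113 and 51, and 5 let-7 genes with siRNA and 5 between controls. With the methods' t-test and Benjamini-Hochberg they were 8 (siRNA) and 15 (controls), and 1 let-7 gene in each. With q-values 69 miRNA and 5 let-7 genes passed between controls. At an adjusted p of at most 0.05 they were 13, 24 and 8. With an intensity trend and robust prior 1 miRNA gene, a let-7 gene (MIRLET7A2), passed with the plasmid.

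The deviations of same-numbered arrays from their group means, over all genes, were correlated between the groups of each comparison. Pearson's r was 0.014 to 0.223 (siRNA), −0.137 to 0.104 (plasmid) and −0.239 to 0.125 (controls). By this measure not every array correlated best with its own number. In the siRNA groups replicates 1 and 2 did (0.223 and 0.143) and replicate 3 did not (0.014). Whether same-numbered samples share more than a number was not tested, and the main fit held no replicate block. With the replicate block 31 miRNA genes passed with siRNA (0 with the plasmid, 33 between controls, 20 for the difference). Leaving out 1 array gave 13 to 31 miRNA and 2 let-7 genes with siRNA, 0 to 1 of both with the plasmid, 23 to 40 and 2 to 4 between controls, and 12 to 28 and 3 to 5 for the difference. The cause of these moves was not tested. No single-gene result that passed on the deposited values changed sign where recomputed, and 72 of these 123 passed under every alternative that held the gene. For those that did not pass, 40 of 1264 recomputed values changed sign. The markers of cell type were not recomputed.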
